A study of Mus musculus with 3 samples.

Results

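The thrombospondins are a family of 5 secreted glycoproteins, Thbs1, Thbs2, Thbs3, Thbs4 and Comp (cartilage oligomeric matrix protein). They were followed here through every probe set that the array's annotation assigns to exactly 1 of them. This gave 5 probe sets for 4 genes, out of 17097 genes named on the array: 1 each for Thbs3, Thbs4 and Comp and 2 for Thbs2. No probe set was annotated to Thbs1 alone, so Thbs1 was not analysed here. The family was picked with its values on these arrays in view, so the levels and differences that follow are a description and carry no test.

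The study holds 3 arrays of mesenchymal progenitors from the bone marrow of adult mice, given as C56Bl/6 and 8 weeks old, with the sorted population named PaS+. All cells were sorted by FACS, grown for 7 days at 1% oxygen, transduced overnight with a lentiviral shRNA vector and collected 4 days after transduction. One array holds cells given a control shRNA (shCTR), 1 holds cells given shHIF-1a and 1 holds cells given shHIF-2a. The controls therefore share the low oxygen, the culture and the transduction, and no array holds cells at ambient oxygen or without virus. The labels name 1 sample per shRNA and 1 hairpin label per target, and do not say how many animals contributed. No spread between samples can be had, so no difference below could be set against one.

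Thrombospondins are matricellular proteins: they sit in the matrix and bind collagens, growth factors and cell receptors more than they bear load. All members carry EGF-like repeats, calcium-binding type 3 repeats and a conserved C-terminal domain. Thbs1 and Thbs2 form trimers and also carry type 1 repeats, which bind the scavenger receptor CD36, whereas Thbs3, Thbs4 and Comp form pentamers without them. In bone and marrow the family is known for Thbs2, whose loss in mice raises the number of marrow mesenchymal progenitors, and in tendon and cartilage for Comp and Thbs4, which bind fibrillar collagens.

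The study addressed what the hypoxia-inducible factors do in these progenitors, so the sequence just before the start of 2 of the detected genes is shown with matches to the core of the hypoxia response element, the short motif that these factors bind. RefSeq promoter sequence (GRCm38.p6) was at hand for Thbs2, Thbs3 and Thbs4. The sequences run 5′ to 3′ along the gene, over the 250 bases that end just before the annotated start. Capitals mark a match to a hypoxia core (ACGTG or GCGTG) or to a SMAD half-site (CAGAC, the motif bound by the transcription factors of TGF-β signalling) on either strand, so that a match on the opposite strand appears as its reverse complement. Thbs4 lies on the minus strand at chr13:92794819-92795068 and Thbs2 on the minus strand at chr17:14694263-14694512.
Thbs4: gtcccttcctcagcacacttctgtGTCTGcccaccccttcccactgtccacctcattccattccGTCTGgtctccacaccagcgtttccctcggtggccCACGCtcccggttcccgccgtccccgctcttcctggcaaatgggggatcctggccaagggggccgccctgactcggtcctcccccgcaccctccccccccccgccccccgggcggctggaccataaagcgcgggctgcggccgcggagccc
Thbs2: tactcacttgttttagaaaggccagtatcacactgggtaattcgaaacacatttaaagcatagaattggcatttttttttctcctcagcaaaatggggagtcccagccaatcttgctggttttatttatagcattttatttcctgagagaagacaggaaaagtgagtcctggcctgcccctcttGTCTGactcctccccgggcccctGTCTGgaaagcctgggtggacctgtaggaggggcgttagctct

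The Thbs4 window held 1 match to GCGTG, on the strand opposite to the gene and 151 to 147 bases before the start, and 0 matches to ACGTG. Such a match is common: 28.1% of 32807 mouse promoter windows of the same length held GCGTG on either strand, 16.6% held ACGTG and 38.6% held at least 1 of them. The Thbs2 and Thbs3 windows held 0 matches to either form, which says only that these letters are not in these windows. CAGAC was found at 2 places in the Thbs4 window and at 2 in the Thbs2 window, all on the opposite strand, against 42.2% of all windows with at least 1. The GC box GGGCGG was found 3 times for Thbs4, 1 time for Thbs3 and 0 times for Thbs2, against 32.7% of all windows. The Thbs4 window was rich in G and C, at 70.8%, and the Thbs2 window was not, at 46.8%, beside a median of 52.4% over all windows. No matches to different motifs overlapped in these windows, and every match is a description of sequence, not a bound site.

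**Figure D1:**
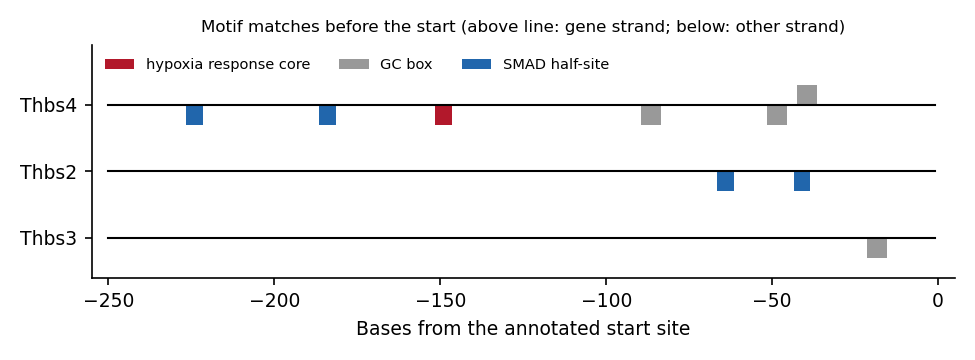
Motif matches in the 250 bases before the annotated start of Thbs4, Thbs2 and Thbs3, by distance from the start in bases; blocks above a line are on the gene's strand and blocks below it on the other. The single hypoxia core is in Thbs4, and both Thbs4 and Thbs2 have 2 SMAD half-sites.

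The targeted genes were read first as a check of the labels. Hif1a stood at an intensity of 352 on the control array and 332 on both shRNA arrays, so its probe set did not set the 2 hairpins apart. Epas1, which encodes HIF-2a, stood at 5.09 on the control array, 9.44 with shHIF-1a and 3.21 with shHIF-2a, the last under 3.47, the highest nonspecific probe set on any array. The arrays are therefore called the HIF-1a-labelled and HIF-2a-labelled arrays, and every direction below rests on those labels. Of 45037 probe sets other than controls, 34.2% to 36.7% passed 3.47 on each array. The 12 hybridisation control probe sets above that level read control RNA that is added at hybridisation. They were dimmer on the HIF-2a-labelled array than on the control array by a median of −1.02 on the log2 scale (range −1.39 to −0.50). On the HIF-1a-labelled array they differed from control by a median of 0.08. The median difference of the mouse probe sets of at least 64 was 0.01 on the HIF-2a-labelled array and 0.00 on the HIF-1a-labelled array. RMA as usually run makes the distributions of the arrays alike. The deposited values were not fully alike, with upper quartiles of 9.81 on the control, 13.0 on the HIF-1a-labelled and 13.9 on the HIF-2a-labelled array. The settings are not known, so those medians do not show whether the dimming was shared.

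Thbs4 was the family member with the largest difference between arrays. Thbs4 (Entrez gene 21828, probe set 1449388) encodes a pentameric thrombospondin of tendon, muscle and vessel wall that binds collagens and, inside cells, takes part in the stress response of the endoplasmic reticulum. Its intensity was 66.6 in control cells, 44.0 with shHIF-1a and 12.7 with shHIF-2a. It was thus highest in control cells, lower with either hairpin, and lowest with shHIF-2a, where it was still 3.65 times the nonspecific level.

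The Thbs4 level on the HIF-2a-labelled array was 19.0% of control, a difference of −2.39 on the log2 scale, or 5.26-fold lower. This was the most negative difference of all 15255 probe sets above the nonspecific level on both arrays. On the HIF-1a-labelled array it was 66.1% of control, a difference of −0.60, or 1.51-fold lower. Only 37 of 15270 probe sets had a difference as negative or more so in that comparison. Set directly against each other, the HIF-2a-labelled array was 3.48-fold below the HIF-1a-labelled array for Thbs4, a difference of −1.80 that 16 of 16214 probe sets reached or passed.

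Comp did not follow Thbs4 on the HIF-1a-labelled array. Comp (Entrez gene 12845, probe set 1419527) encodes the pentamer of cartilage and tendon that links collagen fibrils and is mutated in human pseudoachondroplasia. Its intensity was 218 in control cells, 325 with shHIF-1a and 105 with shHIF-2a. Control cells lay between the hairpins, with shHIF-1a above and shHIF-2a below.

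Comp was 1.49-fold higher than control on the HIF-1a-labelled array (0.57 on the log2 scale) and 2.08-fold lower on the HIF-2a-labelled array (−1.06), just past the 2-fold line. With 32 added to each intensity before log2, the second difference was −0.87 and under 2-fold. Between the hairpins Comp differed 3.09-fold, at −1.63, a difference that needs no control array and that 32 of 16214 probe sets reached or passed. The hybridisation controls were dimmer on the HIF-2a-labelled array in that comparison too, by a median of −1.09. Each level comes from 1 array, so the order of the 3 has no error attached.

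Thbs2 was read by 2 probe sets, which gave the same order of arrays but different sizes. Thbs2 (Entrez gene 21826) encodes a trimeric thrombospondin that restrains blood vessel growth, helps clear matrix metalloproteinase 2 from the matrix and limits the proliferation of marrow progenitors. Probe set 1422571 read 196 on the control array, 267 on the HIF-1a-labelled array and 141 on the HIF-2a-labelled array. Probe set 1450663 read 123, 154 and 50.6 in that order. On both, the HIF-1a-labelled array was the brightest and the HIF-2a-labelled array the dimmest, as for Comp.

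On the HIF-1a-labelled array the Thbs2 differences from control were 0.44 for probe set 1422571 and 0.32 for probe set 1450663, or 1.36-fold and 1.25-fold higher. On the HIF-2a-labelled array they were −0.48 and −1.28, or 1.40-fold and 2.44-fold lower, so that only 1450663 passed 2-fold there. Between the hairpins they were −0.93 and −1.61, or 1.90-fold and 3.05-fold lower with shHIF-2a. The mean of both probe sets gave 0.38, −0.88 and −1.27 in the same 3 comparisons.

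The probe sets of Thbs2 therefore agreed on direction in each comparison and parted on size wherever the HIF-2a-labelled array was involved. Their gap was 0.12 on the HIF-1a-labelled array against control, 0.80 on the HIF-2a-labelled array against control and 0.68 between the hairpins. A gap at least as wide was seen in 70.0%, 15.4% and 4.5% of the genes with several probe sets above the nonspecific level, of which there were 2712, 2712 and 2936. The pooled SD between probe sets of 1 gene was 0.29, 0.36 and 0.19 in the same order. Among probe sets of at least 64 on both arrays it was 0.10, 0.16 and 0.13. That spread is technical, within a pair of arrays, and is not an estimate of how cultures vary.

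Thbs3, a pentamer that takes part in the timing of skeletal maturation, was not detected. Its probe set (1416623, Entrez gene 21827) read 1.35 on each of the 3 arrays, below the nonspecific level of 3.47. No fold is given for it, and equal dim values do not show that its RNA was absent or alike.

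**Figure D2:**
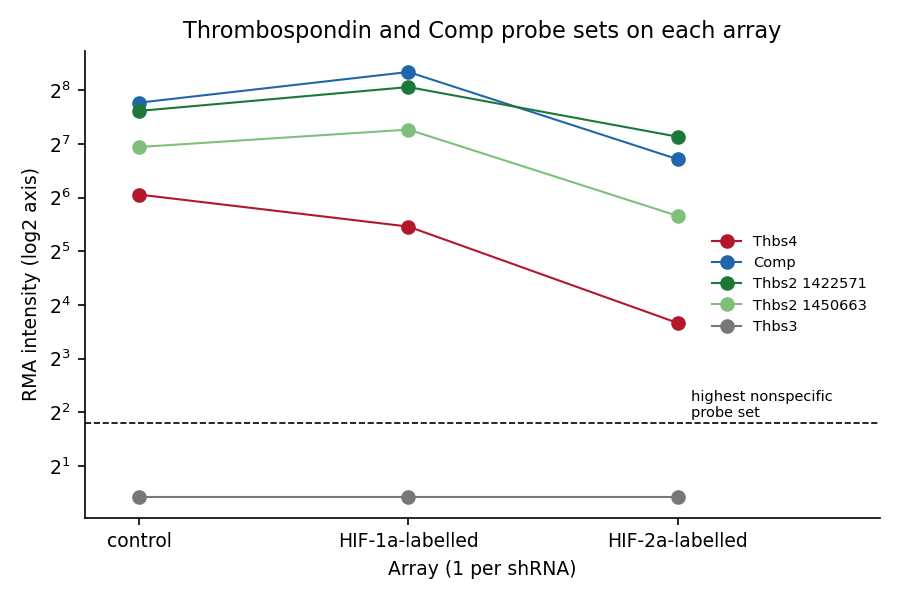
RMA intensity (log2 axis) of each family probe set on the 3 arrays, 1 point per array with lines joining the points of a probe set; the dashed line is the highest nonspecific probe set, 3.47. Comp and both Thbs2 probe sets are highest on the HIF-1a-labelled array, Thbs4 is highest on the control array, all 4 are lowest on the HIF-2a-labelled array, and Thbs3 lies under the dashed line throughout; distances between probe sets do not compare amounts of RNA.

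Counted together, 0 of 5 family probe sets were at least 2-fold higher or lower on the HIF-1a-labelled array than on control. Thbs3, under the nonspecific level, could not pass the rule in any comparison. The family number that matches the shares over probe sets above that level is therefore 4, here and in the comparisons that follow. Over all probe sets above the nonspecific level on at least 1 of these arrays, 4.18% were 2-fold higher and 0.0486% lower, and among those of at least 64 the shares were 0.545% and 0.0454%. The 4 detected probe sets ranged from −0.60 for Thbs4 to 0.57 for Comp, with a median of 0.38, against a median of 0.11 over all 16467 probe sets. Thbs4 and Comp stood 1.17 apart on the log2 scale in this comparison, so the family did not move as a unit.

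On the HIF-2a-labelled array 3 of 5 family probe sets were at least 2-fold lower than control, namely those of Thbs4 and Comp and 1 of Thbs2, and 0 were higher. The share over all probe sets was 0.467% lower and 7.75% higher, and among those of at least 64 it was 0.769% lower and 1.49% higher. All 4 detected probe sets lay below 0, from −2.39 to −0.48 with a median of −1.17, where the median of 16693 probe sets was 0.14 and 19.1% lay below 0. With 32 added before log2, 1 family probe set, that of Thbs4, was still past 2-fold, at −1.14. The values chose these genes, so nothing is read from the excess over the array as a whole. The dimmer hybridisation controls on this array moved in the same direction, with a range of −1.39 to −0.50 that holds the differences of Comp and of Thbs2 probe set 1450663 but not those of Thbs4 or of Thbs2 probe set 1422571; their part in the result was not tested.

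Between the hairpins 3 of 5 family probe sets were at least 2-fold lower on the HIF-2a-labelled array, again Thbs4, Comp and Thbs2 probe set 1450663, and 0 were higher. With 32 added before log2 the Thbs4 difference was −0.77, under 2-fold, and 2 probe sets counted. The share over all probe sets was 0.769% lower and 1.09% higher, and among those of at least 64 it was 1.06% lower and 0.326% higher. The 4 detected probe sets ranged from −1.80 to −0.93 with a median of −1.62, against a median of 0.00 over 16637 probe sets. Here the family members lay closer together than in either comparison with control, within 0.87 on the log2 scale, against 1.17 and 1.91.

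**Figure D3:**
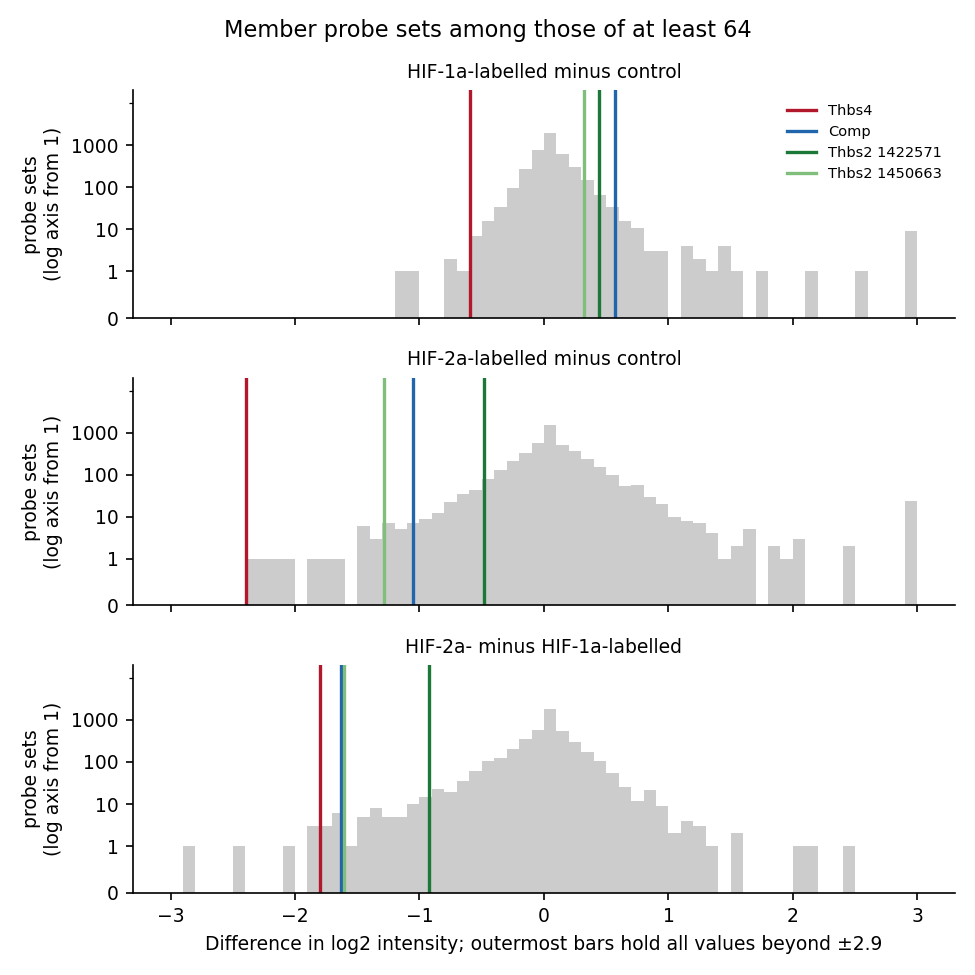
Differences in log2 intensity in the 3 comparisons for probe sets of at least 64 on at least 1 of the arrays compared (grey bars, count on a log axis above 1), with the 4 detected family probe sets as coloured lines. Thbs4 lies at the lower end against control on the HIF-2a-labelled array (−2.39), and all 4 lie below 0 there and between the hairpins; Thbs4 itself is under 64 on both shRNA arrays.

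Likeness of pattern was measured as the distance between genes over their log2 differences from control on the 2 shRNA arrays, among 8250 genes above the nonspecific level on all 3 arrays. For Thbs4 the nearest gene was Serping1, which encodes the inhibitor of complement C1, at a distance of 0.26, with intensities of 162, 126 and 33.7 on the control, HIF-1a-labelled and HIF-2a-labelled arrays. Next came C4b, a complement component, at 0.42 and Cxcl12, the chemokine that retains blood stem cells in marrow, at 0.61. No gene lay within 0.25 of Thbs4, a cut that Serping1 missed narrowly. Serping1 differed from control by −0.37 and −2.27 on the HIF-1a-labelled and HIF-2a-labelled arrays, and C4b by −0.31 and −2.09. For Thbs4 these differences were −0.60 and −2.39.

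For Comp the nearest gene was Gstt1, a glutathione transferase, at 0.10, with intensities of 14.2, 21.0 and 6.38. It was followed by Lum, a proteoglycan that spaces collagen fibrils, at 0.10 (42.5, 66.2 and 21.6) and Plin4, a coat protein of lipid droplets, at 0.12 (25.8, 35.1 and 12.4). Within 0.25 of Comp there were 10 genes. For Thbs2, at its brighter probe set, the nearest were Xlr at 0.03 (on a probe set that may read several transcripts), Fbln1, a matrix glycoprotein, at 0.04 and Msi2, an RNA-binding protein, at 0.04, and 64 genes lay within 0.25. Within the family, Comp lay 0.59 from Thbs2 probe set 1422571 and 0.34 from 1450663, whereas Thbs4 lay 1.78 from Comp and 2.18 and 1.44 from the Thbs2 probe sets. These distances rest on 3 arrays that share 1 control, so they describe likeness on these arrays alone.

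Receptors of thrombospondins were counted by the same 2-fold rule. Of 26 listed receptors and cell-surface partners, 24 were on the array and 19 were above the nonspecific level on at least 1 array. None was 2-fold from control on either shRNA array, with medians of 0.00 on the HIF-1a-labelled and −0.13 on the HIF-2a-labelled array. Over all genes at their brightest probe set, 4.08% were 2-fold higher and 0.0568% lower on the HIF-1a-labelled array, and 7.62% higher and 0.518% lower on the HIF-2a-labelled array. Cd47, the receptor bound by the C-terminal domain of Thbs1, read 448 on both the control and HIF-1a-labelled arrays and 461 on the HIF-2a-labelled array. Calr, whose surface form takes part in thrombospondin signalling to focal adhesions, read 503, 554 and 419. Cd36, the receptor of the type 1 repeats, was dim and read 10.9, 17.5 and 8.17. It was the 1 receptor past 2-fold between the hairpins, at −1.10, against 0.834% of all genes lower and 1.18% higher.

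Matrix partners were the list with the most genes past 2-fold. Of 33 listed matrix and secreted partners 32 were on the array, and 21 were compared between the HIF-2a-labelled and control arrays. Of these 5 were at least 2-fold lower, 0 were higher, and 15 lay below 0, with a median of −0.23 where all genes had a median of 0.14. Over all genes 0.518% were 2-fold lower and 7.62% higher in this comparison. Col2a1, the cartilage collagen that Comp binds, read 194, 215 and 63.3 on the control, HIF-1a-labelled and HIF-2a-labelled arrays. Col1a1, the main collagen of bone and tendon and also a ligand of Comp, read 130, 127 and 48.1. Fmod, the proteoglycan fibromodulin of tendon and cartilage, read 139, 201 and 60.3. Col2a1 and Fmod thus shared with Comp the order of the 3 arrays. That order was not particular to them: Mmp9, Mmp2, Col3a1, Tgfb3 and Dcn on this list had it too. So did Calr, Sdc4 and Itgb5 among the receptors. Col1a1 departed from the order of Comp only by −0.04 on the HIF-1a-labelled array, where Col2a1 stood at 0.15. Both lay under the pooled SD of 0.29 between probe sets of 1 gene, which includes dim probe sets. Among probe sets of at least 64 on both arrays, where these 2 genes lie, it was 0.10, which Col2a1 passed and Col1a1 did not. On the HIF-2a-labelled array Col1a1 stood at −1.44 and Col2a1 at −1.62.

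The other 2 matrix partners past 2-fold were Mmp9, a gelatinase, at −1.38 and Matn2, a matrilin that bridges matrix filaments, at −1.02. The brightest were Dcn, the proteoglycan decorin, which differed from control by 0.07 and −0.03 on the HIF-1a-labelled and HIF-2a-labelled arrays, and Col3a1, a fibrillar collagen, at 0.27 and −0.55. On the HIF-1a-labelled array 0 of 20 matrix partners were past 2-fold and the median was 0.01. Between the hairpins 4 of 21 were 2-fold lower with shHIF-2a and 0 higher, with a median of −0.18, against 0.834% of all genes lower and 1.18% higher.

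Other proteins with thrombospondin type 1 repeats held 1 or 2 genes past 2-fold in each comparison. Of 39 listed 33 were on the array and 16 above the nonspecific level. On the HIF-1a-labelled array 1 was at least 2-fold higher and 0 lower, against 4.08% and 0.0568% of all genes. There 11 lay above 0, 1 below and 4 were equal (median 0.13, against 0.10 over all genes). The higher gene was Adamts9, a matrix protease, which read 2.85, 9.05 and 4.86. It was at least 2.61-fold higher, since its control value lay under the nonspecific level. On the HIF-2a-labelled array 1 was 2-fold lower and 0 higher, against 0.518% and 7.62% of all genes. In that comparison 5 lay above 0, 8 below and 3 were equal (median 0.00, against 0.14 over all genes). The lower gene was Rspo2, an amplifier of Wnt signalling, at 55.2, 65.3 and 26.8. Between the hairpins Rspo2 (−1.28) and the protease gene Adamts12 (−1.17) were 2-fold lower with shHIF-2a and 0 were higher. Over all genes 0.834% were lower and 1.18% higher between the hairpins. Here 0 of 16 lay above 0, 9 below and 7 were equal, with a median of −0.08 against 0.00 over all genes. The CCN genes Ccn1 and Ccn2, matricellular proteins with 1 such repeat, were bright and nearly level. Ccn2 read 672 on all 3 arrays and Ccn1, on a probe set that may cross-hybridise, read 431, 446 and 429. The Ccn2 values were exactly equal, as were those of Lgals1, Egr1, Kitl and Itgb1 below. Such ties made up 16.8% to 32.7% of probe sets above the nonspecific level, so they may hide small differences.

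Of 14 other matricellular genes listed, 13 were on the array and 11 above the nonspecific level. On the HIF-2a-labelled array 1 was at least 2-fold lower than control and 0 higher, against 0.518% and 7.62% of all genes. The lower gene was Smoc1, a calcium-binding matrix protein related to Sparc, which read 11.7, 21.3 and 5.41 and so had the order of arrays seen for Comp. The galectin genes Lgals1 and Lgals3 were the brightest: Lgals1 read 985 on every array and Lgals3 differed from control by at most 0.10. The list median was 0.00 on the HIF-1a-labelled and −0.19 on the HIF-2a-labelled array.

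Among 15 tendon and cartilage genes, 6 were above the nonspecific level and 0 were past 2-fold in any comparison. Prg4, the lubricant of joint and tendon surfaces, read 1032, 919 and 666, and Egr1, a factor that drives tendon differentiation, read 290 on all 3 arrays. The list median was −0.04 on the HIF-1a-labelled and −0.21 on the HIF-2a-labelled array. Of 15 listed TGF-β responsive genes 11 were on the array, all were above the nonspecific level, and 0 were past 2-fold in any comparison, with medians of 0.08 and −0.06. Over all genes 0.0568% to 0.834% were 2-fold lower and 1.18% to 7.62% higher in the 3 comparisons. Ltbp2, a matrix protein related to the binders of latent TGF-β, read 384, 419 and 271 on the control, HIF-1a-labelled and HIF-2a-labelled arrays.

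**Figure D4:**
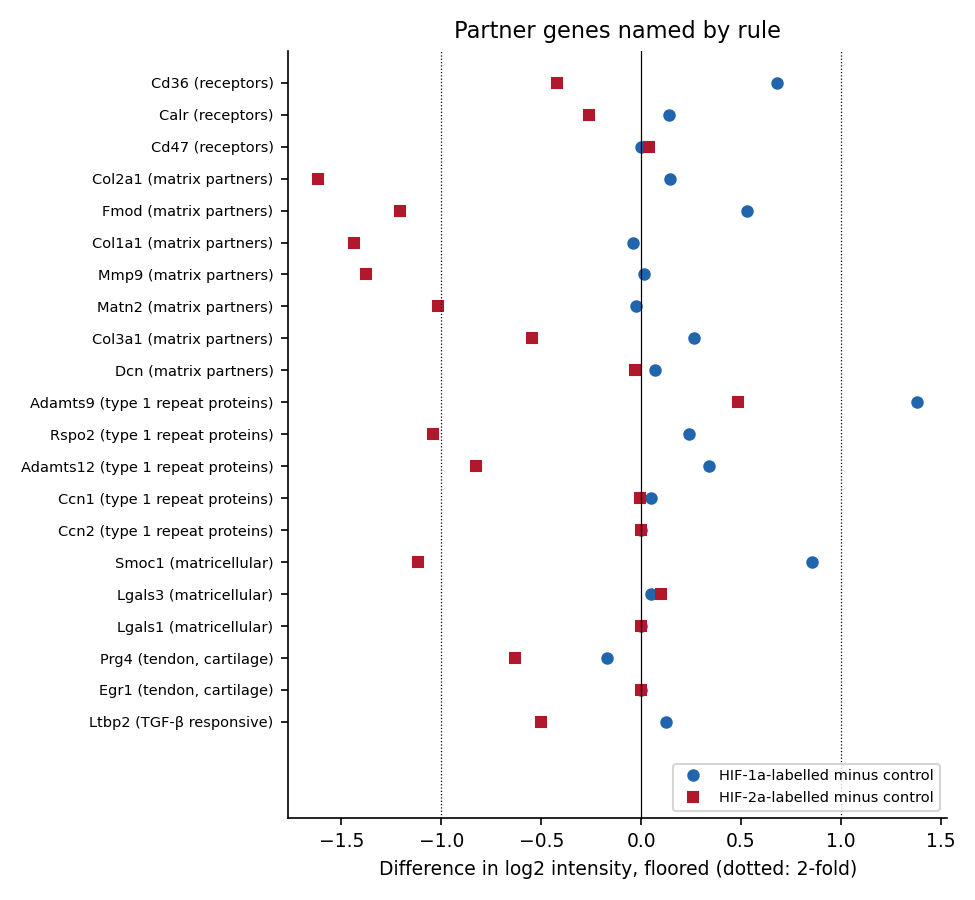
Differences in log2 intensity from the shared control array for the partner genes chosen by rule, with shHIF-1a as circles and shHIF-2a as squares; values under the nonspecific level were raised to it and dotted lines mark 2-fold. Squares for Col2a1, Col1a1, Mmp9, Fmod, Smoc1, Rspo2 and Matn2 lie beyond 2-fold lower, and the circle of Adamts9 lies beyond 2-fold higher.

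Markers of cell types were summed on each array, because thrombospondins are made by several of them. All 11 mesenchymal progenitor markers on the array passed the nonspecific level on each array, with summed intensities of 1635 on the control, 1675 on the HIF-1a-labelled and 1456 on the HIF-2a-labelled array. Of these, Cxcl12 (−1.30) and Pdgfrb (−1.07), a growth factor receptor of stromal cells, were 2-fold lower with shHIF-2a than with shHIF-1a. None was 2-fold higher, and over all genes 0.834% were lower and 1.18% higher. Cxcl12 differed from control by −0.49 and −1.79 on the HIF-1a-labelled and HIF-2a-labelled arrays, and Pdgfrb by 0.89 and −0.18. Platelets and megakaryocytes, known sources of Thbs1, were represented by 10 markers, of which Ppbp alone passed that level. Haematopoietic and macrophage markers passed it for 1, 1 and 2 of 12 genes on the control, HIF-1a-labelled and HIF-2a-labelled arrays, endothelial markers for 2 of 12 and erythroid markers for 0 of 5. Chondrocyte markers passed it for 4 of 10 genes, and their summed intensity was 319 on the control, 345 on the HIF-1a-labelled and 162 on the HIF-2a-labelled array. Tenocyte markers other than Thbs4 and Comp passed it for 2 of 4 genes, Fmod and Scx, with sums of 153, 214 and 73.9. The tendon-defining markers Tnmd and Mkx lay under the nonspecific level. Adipocyte markers passed it for 4, 5 and 5 of 6 genes, with sums of 487, 665 and 253. Smooth muscle markers passed it for 2 of 8 genes, with sums of 698, 733 and 523. Osteoblast markers passed it for 1 of 6 genes, Col1a1.

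The mesenchymal progenitor, chondrocyte, tenocyte, adipocyte and smooth muscle sums were thus all highest on the HIF-1a-labelled and lowest on the HIF-2a-labelled array, the order seen for Comp and Thbs2 but not for Thbs4. Bright genes carried these sums, and some members had another order: Scx (10.3, 9.17 and 9.17), the chondrocyte factor Sox9 (37.3, 35.5 and 31.5) and the tropomyosin gene Tpm2 (316, 293 and 280) were all highest on the control array. Among the progenitor markers Cxcl12 read 250, 178 and 72.3, whereas Cd44 read 500, 539 and 577, and Kitl and Itgb1 were equal throughout. On the HIF-2a-labelled array 4 of the 11 progenitor markers lay above control, 4 below and 3 were equal. Their median intensity was 38.2, 51.6 and 47.9, lowest on the control array, so the progenitor sum does not describe these markers as a set. The part of these sums in the differences of the family was not tested. In bulk RNA such as this, fewer cells of a type and less RNA per cell cannot be told apart.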

How the data were processed

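Gene expression was read from 3 single-colour Affymetrix arrays, 1 per shRNA, and each array was assigned to its group from its title in the labels. The authors deposited linear RMA intensity values; the method comes from the submitters' processing notes, and the sources used here give no version or settings. Log2 of these intensities was taken without further scaling, in Python 3.11.15 with pandas 2.3.3, and values under 3.47, the highest of 23 nonspecific control probe sets on any array, were raised to it. Probe sets were named from the platform annotation where it lists 1 gene, updated by Entrez identifier. A difference of at least 2-fold was called, and no test was run because each group has 1 array, which limits the precision. The call was checked only on simulated shifts well past 2-fold in bright probe sets, which does not cover differences near the line. The genes, the partner lists and the markers were chosen with earlier results of these data known. Named beside the members are Hif1a and Epas1, the 3 genes nearest each member in pattern, and from each list the genes past 2-fold (at most 6) with its 2 brightest on the control array; marker genes are named to describe the lists. Alternatives were other floors, minimum intensities of 16 and 64, 32 added before log2, cyclic loess (limma 3.58.1), centring, a 1.5-fold rule and gene-level values. Promoter sequences are those of RefSeq.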

Additional observations from a re-analysis of the deposited data

How the results depend on the processing

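With a 1.5-fold rule 1 family probe set, Thbs4, counted as different on the HIF-1a-labelled array against control, in place of 0. With 32 added before log2, 1 counted on the HIF-2a-labelled array against control in place of 3, because Comp (−0.87) and Thbs2 probe set 1450663 (−0.91) then lay under 2-fold. Between the hairpins the same change left 2 of 3, with Thbs4 at −0.77. Under the other alternatives run, the counts stayed within 1.5 times. Of 84 recomputed differences of the 4 detected probe sets, 79 moved by less than the pooled SD between probe sets of a gene. The other 5 moved by more, all with 32 added, and 0 changed sign. Most of the 84 could not move: the floors and minimum intensities leave these probe sets unchanged, because all 4 pass them. Centring shifted each difference by 0.005 or less. Only the added 32 and cyclic loess could therefore have moved them much. Cyclic loess gave Thbs4 −2.55 and Comp −1.08 on the HIF-2a-labelled array against control, and it took the median of all probe sets in that comparison from 0.14 to 0.02. No paired analysis was possible because each group has 1 array. Many values were equal between arrays (16.8% to 32.7% of probe sets above the nonspecific level), so small differences may not be recorded, and Thbs3 could not be measured.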

Other observations

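Of all genes on the marker lists, the adipocyte marker Lpl had the largest difference between the hairpins, at −2.07 on the log2 scale. This gene, which encodes the lipoprotein lipase of fat cells, read 149 on the control, 224 on the HIF-1a-labelled and 53.2 on the HIF-2a-labelled array. Fabp4, a fatty acid carrier, read 298, 394 and 164. Adipoq, which encodes the hormone adiponectin, read 3.004, 10.003 and 3.499, so it was near or under the nonspecific level of 3.47 on the control and HIF-2a-labelled arrays. Pparg, the regulator of fat cell differentiation, read 24.4, 24.7 and 20.1 and was under 2-fold in each comparison. In the other direction Ppbp, a platelet chemokine precursor, read 59.3, 64.5 and 187, while the other 9 megakaryocyte and platelet markers on the array lay under the nonspecific level on all 3 arrays.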
